A study of Mus musculus with 4 samples.

Results

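The Lef1 and Tcf7l2 GABAergic neurons of the mouse hypothalamus were taken from single-nucleus RNA-seq as nuclei with 500 or more detected genes, at most 5% mitochondrially encoded UMIs, 2 or more UMIs each of Lef1 and Tcf7l2, 2 or more UMIs of Gad1, Gad2 and Slc32a1 summed, and 3 or more UMIs of the neuronal transcript Snhg11. A UMI is a molecular tag that counts 1 captured RNA molecule. The rule took 55 nuclei out of 10080 GABAergic nuclei, which met the same limits without Lef1 and Tcf7l2, and out of 54422 nuclei that passed the gene and mitochondrial limits. Wild-type C57BL/6J mice, labelled SPF in the sample titles and conventional in the design text, had received imidazole propionate (ImP), a bacterial product of histidine, at 350 µg per day over 2 weeks by intraperitoneal osmotic minipump, or the vehicle, water with 1% DMSO. Nuclei of snap-frozen hypothalamus from perfused mice gave 2 ImP libraries, numbered 3 and 4, and 2 vehicle libraries, numbered 1 and 2. The rule took 6 nuclei in ImP 3 and 10 in ImP 4, against 23 in vehicle 1 and 16 in vehicle 2.

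Lef1 and Tcf7l2 encode the DNA-binding TCF/LEF factors through which β-catenin acts on target genes when Wnt ligands bind their Frizzled and LRP receptors. Without β-catenin the same factors hold target genes down with co-repressors. In the brain Tcf7l2 is best known from thalamic and midbrain neurons and from glia, and Lef1 from subsets of hypothalamic neurons, some of them GABAergic. Histaminergic neurons of the tuberomammillary nucleus, in the posterior hypothalamus, make histamine with histidine decarboxylase (Hdc), fill vesicles with it through Slc18a2 and also express GABA-synthesising enzyme.

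The genes in the rule, Lef1, Tcf7l2, Gad1, Gad2, Slc32a1 and Snhg11, were the values the nuclei were selected on, so their levels are a description. Levels are counts per 1000000 (CPM) of the summed UMIs of a class of nuclei within a library, and 4 values are given in the order ImP 3, ImP 4, vehicle 1, vehicle 2. Lef1 had 200.5, 362.9, 326.8 and 405.7 CPM in the Lef1/Tcf7l2 nuclei and averaged 19.97 CPM in the other GABAergic neurons. Tcf7l2 had 280.7, 449.9, 353.7 and 371.9 CPM and averaged 23.58 CPM in the other GABAergic neurons. These levels rest on few molecules: 28 of the 55 nuclei had exactly 2 UMIs of Lef1, 28 had exactly 2 of Tcf7l2 and 17 had exactly 2 of both, while the highest counts were 7 of Lef1 and 9 of Tcf7l2. Just outside the rule stood 130 GABAergic nuclei with 1 or more UMIs of both genes, of which 48 had 1 UMI of Lef1 and 2 or more of Tcf7l2, 40 had the reverse and 42 had 1 UMI of each.

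The GABAergic label held unevenly. Gad1, a GABA-synthesising enzyme, averaged 151.8 CPM in the Lef1/Tcf7l2 nuclei and 146.7 CPM in the other GABAergic neurons, and Gad2 averaged 282.5 and 369.4 CPM in the same classes. Slc32a1, which loads GABA into vesicles, had 0, 58.06, 53.73 and 59.16 CPM in the Lef1/Tcf7l2 nuclei and averaged 98.29 CPM in the other GABAergic neurons. A count of 0 in the summed Lef1/Tcf7l2 nuclei allows a level of up to 40.1, 43.54, 13.43 and 25.35 CPM in the same order of libraries, at 3 counts and for counting error only. The neuropeptide S receptor Npsr1 and the retinoic acid receptor Rarb, proposed as markers of these neurons, differed in how far their levels stood above those of the other GABAergic neurons. Npsr1 had 0, 261.3, 273.1 and 329.6 CPM, against 45.72, 47.91, 53.64 and 51.41 CPM in the other GABAergic neurons. It had a UMI in 34.5% of the Lef1/Tcf7l2 nuclei and in 8.51% of the others. Rarb had 13.37, 43.54, 49.25 and 59.16 CPM and averaged 32.7 CPM in the other GABAergic neurons, so that its libraries lay on both sides of that level. Rarb had a UMI in 29.1% of the Lef1/Tcf7l2 nuclei and in 10.8% of the others. In GABAergic neurons with 2 or more UMIs of Lef1 and none of Tcf7l2, Rarb averaged 132.1 CPM, with a UMI in 29.3% of nuclei. Npsr1 averaged 217.1 CPM there, with a UMI in 27.4% of nuclei, against a mean of 216 CPM in the Lef1/Tcf7l2 nuclei.

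Depth and libraries frame every comparison. The libraries held 48060194 to 51945297 UMIs. The Lef1/Tcf7l2 nuclei had median UMI counts of 6265 to 8852 per library, above the medians of 4135 to 5538 in the other GABAergic neurons, and held 74811, 68898, 223353 and 118322 UMIs in sum. Of the 74811 UMIs in ImP 3, 33151 came from 1 nucleus that also had 3 UMIs of glutamate transporters and 11 of glial markers. Among all 55, 5 nuclei had 2 or more UMIs of vesicular glutamate transporters and 3 had 5 or more of glial markers, and a strict set without these nuclei kept 48. Libraries shared 39 to 76 barcodes per pair, none of them a barcode of the Lef1/Tcf7l2 nuclei.

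Hdc separated the nuclei into kinds that the rule did not ask for. Hdc had 2 or more UMIs in 11 of the 55 nuclei, Npsr1 in 15 and neither in 29. No nucleus had both, and Npsr1 had no UMI in any of the 11 nuclei with Hdc. These kinds were chosen after their values were seen and carry no test. The 11 nuclei with Hdc had 3 to 31 Hdc UMIs each and fell as 2, 2, 6 and 1 over the libraries, and the 15 with Npsr1 fell as 0, 2, 8 and 5. In ImP 4, 31 of the 36 Hdc UMIs came from 1 nucleus.

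**Figure D1:**
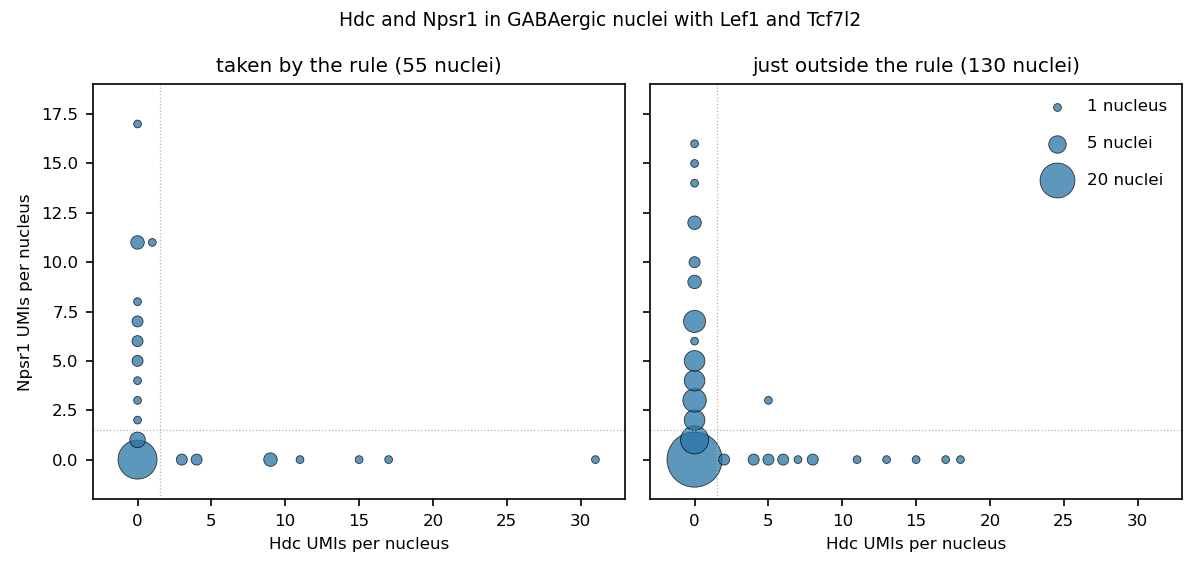
Hdc UMIs per nucleus on the horizontal axis and Npsr1 UMIs per nucleus on the vertical axis, for the 55 nuclei taken by the rule and the 130 just outside it, with circle area showing how many nuclei share a position and dotted lines separating fewer than 2 UMIs from 2 or more. The nuclei lie along the axes: none of the 55, and 1 of the 130, had 2 or more UMIs of both genes.

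Several genes were detected in a larger share of the nuclei with Hdc than of the other kinds. Some of them are known from histaminergic neurons, and all were chosen after their values were seen. Slc18a2, the vesicular monoamine transporter, had a UMI in 11 of the 11 nuclei with Hdc, in 6 of the 15 with Npsr1 and in 5 of the 29 with neither. Maob, a monoamine oxidase that degrades histamine products, had a UMI in 9, 2 and 0 nuclei of these kinds. The orexin receptor Hcrtr2, through which orexin neurons excite histaminergic cells, had a UMI in 10, 3 and 5 nuclei, at 748.5, 94.22 and 28.43 CPM. The aromatic amino acid transporter Slc16a10 was detected in 11, 2 and 2 nuclei, at 687.3, 15.7 and 14.21 CPM. The Wnt-binding secreted inhibitor Wif1 was detected in 8, 3 and 2 nuclei, at 142.9, 23.56 and 9.476 CPM. The GABAergic genes were uneven across the kinds: Gad1 had a UMI in 10, 7 and 19 nuclei, Gad2 in 4, 15 and 25, and Slc32a1 in 2, 5 and 11.

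Other genes were detected in a larger share of the nuclei with Npsr1 than of the other kinds. The proprotein convertase Pcsk5 was detected in 14 of the 15 nuclei with Npsr1, against 3 of the 11 with Hdc and 17 of the 29 with neither. The growth hormone receptor Ghr was detected in 13 of 15, against 4 of 11 and 14 of 29. Some genes crossed the kinds: Lypd6, a membrane-anchored modulator of nicotinic receptors, was in 11 of 11 nuclei with Hdc, 10 of 15 with Npsr1 and 18 of 29 with neither, and the neurexin ligand Nxph1 was in 11, 14 and 27. Depth differed between the kinds, with median UMI counts of 9808, 8532 and 6077, and its part in these shares was not tested.

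**Figure D2:**
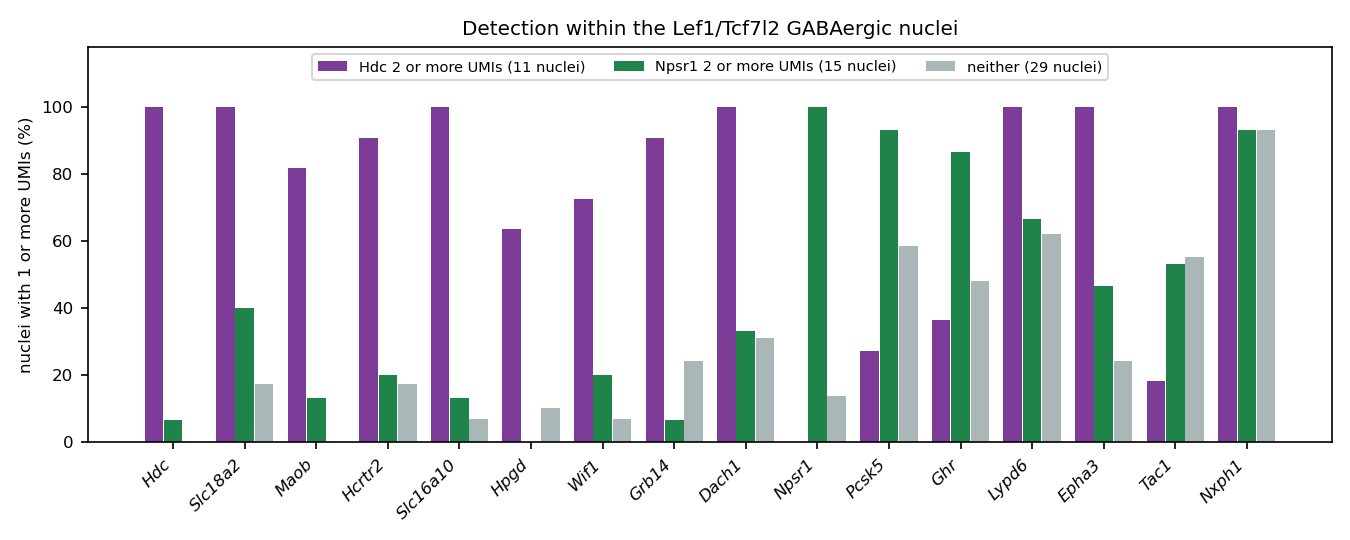
Share of nuclei with 1 or more UMIs (vertical axis, %) of 16 genes in Lef1/Tcf7l2 GABAergic nuclei with 2 or more Hdc UMIs (11 nuclei), with 2 or more Npsr1 UMIs (15) and with neither (29). Slc18a2, Slc16a10, Dach1, Lypd6, Epha3 and Nxph1 were found in 11 of the 11 nuclei with Hdc, and Pcsk5 in 14 of the 15 with Npsr1. Tac1, in 8 of 15 and 16 of 29, did not separate the nuclei with Npsr1 from those with neither.

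The kinds reached beyond the rule in unequal measure. Hdc had 2 or more UMIs in 20% of the Lef1/Tcf7l2 nuclei, 13.1% of the nuclei just outside, 8.84% of GABAergic nuclei with Lef1 alone, 1.46% of those with Tcf7l2 alone and 0.843% of all GABAergic nuclei. Npsr1 had 2 or more UMIs in 27.3%, 39.2%, 22.3%, 12.2% and 4.86% of the same classes. Nuclei with 1 or more Hdc UMIs made up 21.8% of the Lef1/Tcf7l2 nuclei and 0.122% of oligodendrocyte nuclei, a class that lacks the gene, with median UMI counts per library of 6265 to 8852 and 1485 to 1698. Seen from the histaminergic side, 186 nuclei of the series had 3 or more Hdc UMIs. Lef1 was detected in 140 of the 186 and Tcf7l2 in 85, but only 78 reached the GABAergic limit and 11 met the whole rule. Of 42438 nuclei with 3 or more Snhg11 UMIs and no Hdc UMI, Lef1 was detected in 1342 and Tcf7l2 in 3941. Median UMI counts per library were 5513 to 6968.5 in the 186 nuclei and 3308 to 4504 in those without Hdc. The part of depth in these counts was not tested.

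Against the other GABAergic neurons, Hdc, Hpgd and Wif1 had the largest increases in the Lef1/Tcf7l2 nuclei and Gfra1, Zfp536 and Trpc6 the largest decreases. Of 14858 genes tested with edgeR on counts summed per library, with the library as a block, 333 (2.24%) passed an adjusted p of 0.05. Of these, 137 genes (0.922%) were higher and 196 (1.32%) lower in the Lef1/Tcf7l2 nuclei, and the median log2 fold change of all genes tested was -0.20. With RLE scaling that median was -0.08 and the split was 175 higher and 128 lower. All 137 genes called higher kept their call with RLE scaling, and 128 of the 196 lower ones did. DESeq2 called 143 genes, keeping 92 of the 137 and 35 of the 196. The edgeR count filter could be met by the other GABAergic neurons alone, whose sums held 11438266 to 13982870 UMIs per library. A gene with few or no UMIs in the Lef1/Tcf7l2 nuclei could thus be tested and called lower. The part of this filter in the 196 was not tested. Without vehicle 1, which holds 23 of the 55 nuclei, 139 genes were called, among them 55 of the 137 and 76 of the 196.

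Among the 15 genes with the largest increases, Hdc had 160.4, 522.5, 264.2 and 76.06 CPM in the Lef1/Tcf7l2 nuclei, against 9.704, 12.83, 8.439 and 13.65 CPM in the other GABAergic neurons. The summed level was higher in the Lef1/Tcf7l2 nuclei in each library, by unequal folds. The log2 fold change was 4.33 ± 0.26 (SE from the edgeR fit, n = 4 libraries, edgeR adjusted p = 2.6e-57). Single nuclei of the classes overlapped: Hdc had a UMI in 12 of the 55 Lef1/Tcf7l2 nuclei and in 145 of the 10025 others. Hpgd, which inactivates prostaglandins, had 120.3, 116.1, 89.54 and 67.61 CPM, against 5.508, 5.487, 5.149 and 4.982 CPM. Its log2 fold change was 4.06 ± 0.39 (edgeR adjusted p = 1.3e-21). Hpgd had a UMI in 10 of the 55 nuclei. In ImP 3, 7 of its UMIs lay in the nucleus with 33151 UMIs. A single nucleus held 8 of its UMIs in ImP 4, and another held 6 in vehicle 2. Slc16a10 had 334.2, 275.8, 197 and 152.1 CPM and averaged 25.9 CPM in the other GABAergic neurons, a log2 fold change of 3.06 (edgeR adjusted p = 6.8e-36). Hcrtr2 had 467.8, 261.3, 259.7 and 143.7 CPM and averaged 47.84 CPM in the others, a log2 fold change of 2.40 (edgeR adjusted p = 7.1e-28).

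Slc18a2 had 160.4, 130.6, 183.6 and 118.3 CPM in the Lef1/Tcf7l2 nuclei and averaged 28.7 CPM in the other GABAergic neurons, with a log2 fold change of 2.28 (edgeR adjusted p = 1.3e-15). Maob was higher by 3.07 on the log2 scale, with levels of 106.9, 14.51, 94.02 and 33.81 CPM that differed widely between libraries and a mean of 8.02 CPM in the others. The nuclei with Hdc weighed on these values. When nuclei with 2 or more Hdc UMIs were left out of both classes, an alternative chosen after seeing the data, 147 genes were called and 40 of the 129 higher genes still tested kept their call. The log2 fold change of Hpgd was then 1.43 (edgeR adjusted p = 0.75), that of Slc18a2 0.82, that of Hcrtr2 0.36 and that of Slc16a10 -0.30, none of them past the threshold.

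Of the 14 leading genes other than Hdc, 4 kept their call without those nuclei: Lypd6, Kif6, Npl and Pdgfrb. Lypd6 had 106.9, 101.6, 246.2 and 253.5 CPM in the Lef1/Tcf7l2 nuclei, against 29.64, 26.28, 31.61 and 29.67 CPM in the other GABAergic neurons. It was higher in 4 of 4 libraries, with a log2 fold change of 2.60 ± 0.24 (SE, edgeR adjusted p = 2.9e-24) and of 2.76 without the Hdc nuclei. It had a UMI in 70.9% of the Lef1/Tcf7l2 nuclei and in 10.5% of the others. The kinesin Kif6 had 53.47, 203.2, 152.2 and 109.9 CPM and averaged 16.68 CPM in the others, with log2 fold changes of 2.88 with and 2.61 without the Hdc nuclei. Npl, a lyase that breaks down sialic acid, was higher by 2.81 and 2.41 on the log2 scale in the same fits.

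Pdgfrb, the receptor for platelet-derived growth factor that marks mural cells of vessels, had 13.37, 43.54, 35.82 and 42.26 CPM in the Lef1/Tcf7l2 nuclei and averaged 3.11 CPM in the other GABAergic neurons. Its log2 fold change was 3.39 ± 0.58 (SE, edgeR adjusted p = 1.2e-06). Of the 10 mural markers, 4 had UMIs in the Lef1/Tcf7l2 nuclei, where their summed level ran from 40.1 to 101.6 CPM, against 32.18 to 33.31 CPM in the others. The defining mural genes Rgs5 and Abcc9 had no UMI in the 55 nuclei.

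**Figure D3:**
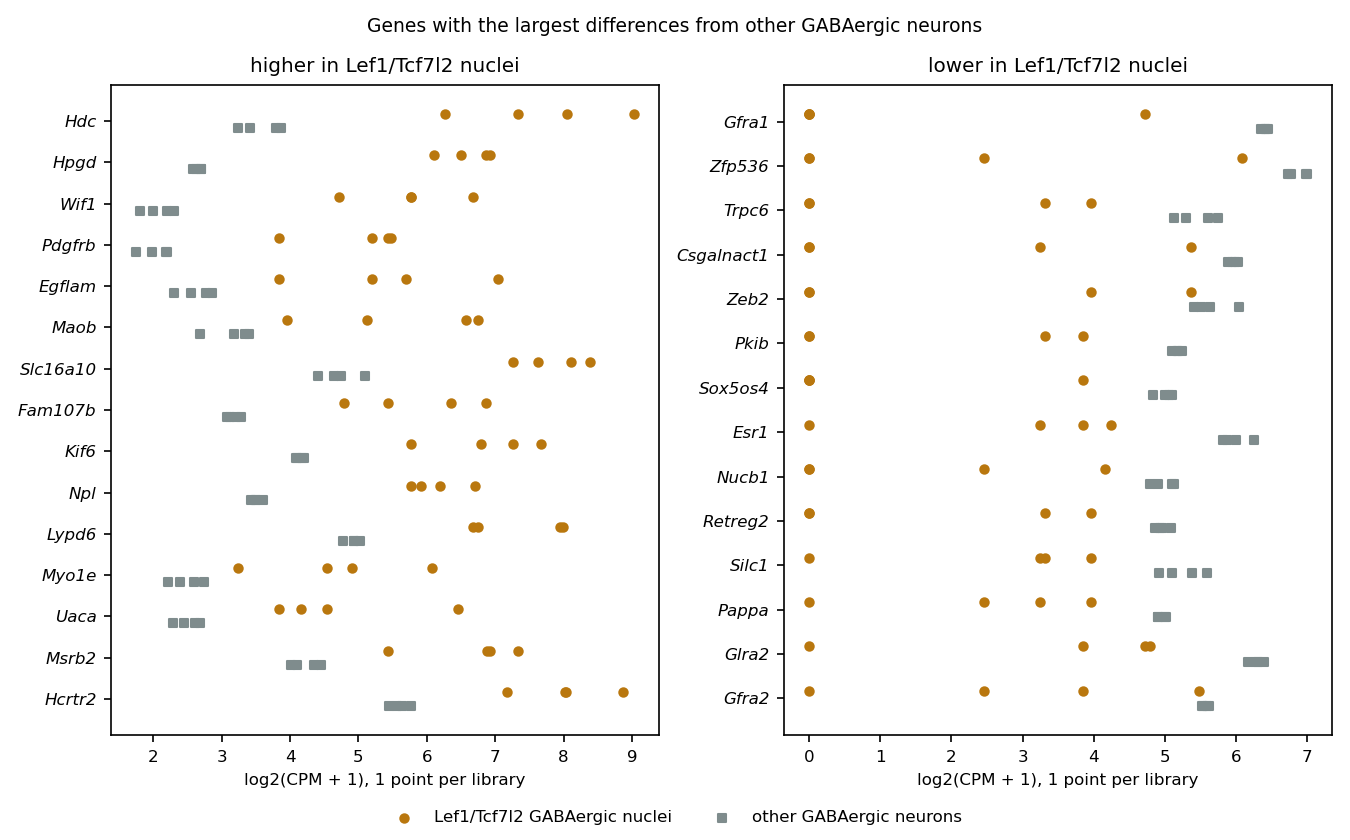
Levels as log2(CPM + 1) on the horizontal axis, with 1 point for each of the 4 libraries, of the 15 genes most increased and 14 of the 15 most decreased in Lef1/Tcf7l2 GABAergic nuclei (circles) relative to other GABAergic neurons (squares). Points of libraries at 0 lie on each other. Hdc spanned 76.06 to 522.5 CPM in the Lef1/Tcf7l2 nuclei, and Gfra1 was at 0 in 3 of their 4 libraries.

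The decreases included Gfra1, Gfra2, Esr1, Zfp536, Zeb2 and Glra2. Gfra1, a co-receptor for glial cell line-derived neurotrophic factor, had 0, 0, 0 and 25.35 CPM in the Lef1/Tcf7l2 nuclei, against 85.85, 80.53, 84.75 and 83.83 CPM in the other GABAergic neurons. Its log2 fold change was -3.84 ± 0.53 (SE, edgeR adjusted p = 3.0e-10). Genes that fell could pass the count filter through the other GABAergic neurons alone. The related co-receptor Gfra2 averaged 15.35 CPM, against 46.42 CPM. Esr1, oestrogen receptor α, had 13.37, 0, 17.91 and 8.452 CPM, against 57.26, 62.68, 55.28 and 74.95 CPM, and was lower by 2.41 on the log2 scale (log2 fold change -2.41, edgeR adjusted p = 7.2e-05). The transcriptional repressors Zfp536 and Zeb2 had log2 fold changes of -3.31 and -2.62. The glycine receptor subunit Glra2 averaged 16.38 CPM, against 77.35 CPM. Of the 15 most decreased genes, 12 kept their call with RLE scaling, 10 without the Hdc nuclei and 2 with DESeq2, whose adjusted p was 0.13 for Gfra1 and 0.082 for Esr1.

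Within the Wnt pathway, the calls lay among membrane regulators, inhibitors and targets. None of 7 ligands tested passed the threshold (median log2 fold change 0.59), none of 23 intracellular components (0.01) and none of 16 nuclear factors (-0.08). Of 16 receptors and co-receptors 2 rose and none fell (median 0.25), of 11 inhibitors 3 rose and none fell (median 1.04), and of 15 target genes 3 rose and 2 fell (median -0.43). The lists share members. Over all genes tested 0.922% rose, 1.32% fell and the median was -0.20. Wif1 had 53.47, 101.6, 53.73 and 25.35 CPM in the Lef1/Tcf7l2 nuclei, against 2.972, 3.941, 2.503 and 3.61 CPM in the other GABAergic neurons, a log2 fold change of 4.02 ± 0.50 (SE, edgeR adjusted p = 4.6e-13). Without the Hdc nuclei it was 3.05 (edgeR adjusted p = 0.097).

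Nkd1, a Dishevelled-binding inhibitor that Wnt signalling itself induces, had 13.37, 29.03, 8.954 and 42.26 CPM in the Lef1/Tcf7l2 nuclei and averaged 2.75 CPM in the other GABAergic neurons. In ImP 3, ImP 4 and vehicle 1 these levels lay below what 3 counts are worth, 40.1, 43.54 and 13.43 CPM. Nkd1 had a UMI in 8 of the 55 nuclei, in 1.3% of the other GABAergic neurons and in 5.39% of oligodendrocyte nuclei. Its log2 fold change was 2.83 (edgeR adjusted p = 0.006), and 3.18 without the Hdc nuclei (edgeR adjusted p = 0.0034). Nkd1 lost its call without ImP 4, vehicle 1 or vehicle 2, with edgeR adjusted p of 0.11, 0.068 and 0.51. The inhibitor Apcdd1 rose by 2.61 and lost its call without any 1 library. Znrf3, a ubiquitin ligase that removes Frizzled from the membrane, had 173.8, 145.1, 197 and 185.9 CPM and averaged 79.3 CPM in the others (log2 fold change 1.07). Without the Hdc nuclei the log2 fold changes were 0.55 for Znrf3 (edgeR adjusted p = 0.65), 0.19 for Apcdd1 (0.997) and -0.41 for Tspan12 (0.96), so that of the 5 genes that rose in these lists, Nkd1 alone kept its call. Tspan12, a Frizzled co-receptor, rose by 1.91 and lost its call without vehicle 1 (edgeR adjusted p = 0.91) and with DESeq2 (adjusted p = 0.45). Axin2, a widely used Wnt target, had 0, 0, 17.91 and 8.452 CPM and averaged 12.9 CPM in the others (log2 fold change -0.43, edgeR adjusted p = 0.92).

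Promoter sequences of Hdc and of the inhibitors Wif1 and Nkd1 are shown as examples of genes that rose against the other GABAergic neurons. Each runs from 250 bases before to 50 bases after the annotated start, on the gene's strand, from RefSeq on build GRCm38.p6, which is not the build of the counts. TCF/LEF motifs, searched on both strands as CTTTG followed by 2 bases that are each A or T, are in capitals.
Hdc, chr2:126618629-126618928, minus strand: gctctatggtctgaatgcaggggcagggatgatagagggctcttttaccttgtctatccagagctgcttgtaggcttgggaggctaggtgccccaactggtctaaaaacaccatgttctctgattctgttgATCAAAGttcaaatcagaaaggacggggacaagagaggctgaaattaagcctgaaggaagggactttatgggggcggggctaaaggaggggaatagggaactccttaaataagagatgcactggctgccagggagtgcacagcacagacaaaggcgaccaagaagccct
Wif1, chr10:121033754-121034053, plus strand: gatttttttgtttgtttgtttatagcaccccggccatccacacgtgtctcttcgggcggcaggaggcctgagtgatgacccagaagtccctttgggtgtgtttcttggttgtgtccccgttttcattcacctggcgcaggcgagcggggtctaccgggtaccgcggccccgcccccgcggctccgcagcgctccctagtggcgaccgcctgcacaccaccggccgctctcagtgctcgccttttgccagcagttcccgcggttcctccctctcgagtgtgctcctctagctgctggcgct
Nkd1, chr8:88527383-88527682, plus strand: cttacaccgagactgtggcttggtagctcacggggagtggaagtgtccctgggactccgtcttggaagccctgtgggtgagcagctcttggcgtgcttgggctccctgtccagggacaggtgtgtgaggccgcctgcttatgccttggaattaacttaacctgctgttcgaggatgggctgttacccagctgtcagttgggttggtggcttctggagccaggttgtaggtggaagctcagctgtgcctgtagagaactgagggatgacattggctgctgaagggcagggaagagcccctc
The Hdc promoter holds 1 motif, on the opposite strand, which begins 119 bases before the start (position -119). The other sequences hold none of these letters. Of the 15 most increased genes 13 had a promoter entry, and 2 of them, Hdc and Myo1e, held a motif. Over all 32851 promoters of this length 5544, or 16.9%, held 1 or more. A match is a run of letters and does not show binding.

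Peptides and their receptors differed in both directions, beside 0.922% higher, 1.32% lower and a median log2 fold change of -0.20 over all genes tested. Genes could be tested through the other GABAergic neurons alone, and the part of this in the falls and negative medians was not tested. Of 38 neuropeptide and related precursors tested, 2 rose and 6 fell (median log2 fold change -0.95). Among those that fell is the vasopressin precursor Avp, which had a UMI in 61.4, 73.1, 41.4 and 57.5% of oligodendrocyte nuclei, a class that lacks the gene, and in 33.3, 50, 47.8 and 68.8% of the Lef1/Tcf7l2 nuclei. These shares are read as background, and its part in the list was not tested. Tac1 had 133.7, 159.7, 134.3 and 236.6 CPM in the Lef1/Tcf7l2 nuclei, against 65.57, 78.29, 48.56 and 53.65 CPM in the other GABAergic neurons, a log2 fold change of 1.40, and 1.70 without the Hdc nuclei. Nxph1 had 761.9, 1205, 1419 and 1935 CPM and averaged 477.4 CPM in the others, a log2 fold change of 1.32. Of 31 neuropeptide receptors 3 rose (Hcrtr2, the calcitonin-like receptor Calcrl and the bombesin-like receptor Brs3) and 1 fell, the µ-opioid receptor Oprm1 (log2 fold change -1.02), with a median of -1.02. Without the Hdc nuclei Hcrtr2 (0.36, edgeR adjusted p = 0.88) and Calcrl (-1.80, edgeR adjusted p = 0.76) lost their calls and Calcrl turned negative, while Brs3 kept its call at 2.95 and turned to -7.28 with 3 or more UMIs of both rule genes. Of 18 receptors for metabolic and reproductive hormones none rose and 3 fell, among them Esr1 and the prolactin receptor Prlr (-1.40). Of 28 monoamine and acetylcholine genes, Slc18a2 rose and 4 fell, among them the serotonin receptors Htr2c and Htr7.

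Synaptic, adhesion and regulatory lists moved in part, again beside 0.922% higher and 1.32% lower over all genes tested and a median of -0.20. Of 24 glutamate receptor genes 2 rose and 4 fell, among them Gria3 (-1.28), Grik1 (-0.99) and Grik2 (-0.77), and RLE scaling gave 5 and 3. Of 21 genes of GABA handling and reception none passed the threshold (median -0.25). Of 72 axon guidance and adhesion genes 4 rose and 6 fell: the ephrin receptor Epha3 rose by 1.70 on the log2 scale and the semaphorin Sema6d by 1.07, and the contactin Cntn5 fell by 1.13. Of 62 ion channel genes 4 rose, among them the calcium channel subunit Cacna2d1 (1.09), and 6 fell. Of 69 transcription factors of hypothalamic regions 3 rose, among them Klf5 (2.29), and 10 fell, among them Sox5 (-1.60), with 5 and 6 under RLE scaling. Of 18 calcium-binding genes 2 rose, neurocalcin Ncald (1.29) and Necab1 (1.54), and 1 fell. Of 7 regulatory and marker genes of thalamus, prethalamus and pretectum none rose and Ecel1 fell, and of 36 synaptic release genes 2 rose and 1 fell, the neurexin Nrxn3 (-0.84). None of 13 retinoid genes (median -0.50), 16 immediate early genes (0.15) or 32 genes of reported ImP signalling (-0.03) passed.

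RNA composition differed between the classes along with these genes. Mitochondrially encoded transcripts made up 0.322, 0.655, 0.709 and 0.718% of UMIs in the Lef1/Tcf7l2 nuclei, against 1.11, 1.02, 1.02 and 1.21% in the other GABAergic neurons, and 8 of 13 such genes fell (median log2 fold change -0.92, and -0.78 with RLE scaling). Of 76 ribosomal protein genes 6 fell (median -0.59), and 2 with RLE scaling, while none of 72 nuclear-encoded respiratory chain genes passed (median -0.56). Over all genes tested 1.32% fell and the median was -0.20. With RLE scaling 128 of 14858 fell and the median was -0.08. Summed oligodendrocyte markers ran from 160.4 to 380.3 CPM in the Lef1/Tcf7l2 nuclei, with 10 of 10 genes detected, against 292.1 to 495.6 CPM. Astrocyte markers, with 11 of 12 detected, ran from 116.1 to 427.7 CPM, against 223.6 to 341 CPM. The endothelial genes Cldn5 and Flt1, the microglial gene Csf1r and the glutamatergic gene Slc17a7 had no UMI in the 55 nuclei. Other genes of these lists did: the microglial genes P2ry12 and Cx3cr1 had 41 and 9 UMIs, endothelial Pecam1 5 and glutamatergic Slc17a6 20. Summed microglial markers averaged 139.7 CPM, against 155.9 CPM in the other GABAergic neurons. Endothelial markers averaged 33.28 against 32.87 CPM, and glutamatergic markers 57 against 44.09 CPM. The part of depth and RNA composition in the differences was not tested.

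The nuclei just outside the rule, which it did not take, give the same measures in other nuclei of the same libraries. They were compared with GABAergic nuclei lacking UMIs of 1 or both genes, in a fit added after seeing the data. Of 15087 genes 458 (3.04%) passed, 236 higher (1.56%) and 222 lower (1.47%), and RLE scaling gave 290 and 168. Without vehicle 2, 279 genes passed. Hdc averaged 152.9 ± 37.4 CPM just outside the rule and 8.73 ± 2.1 CPM in the nuclei they were set against (SD, n = 4 libraries), a log2 fold change of 4.11 (edgeR adjusted p = 6.9e-71). Other values were 3.43 for Wif1, 2.50 for Hpgd, 2.14 for Lypd6, 3.22 for Nkd1, 3.18 for Pdgfrb and 1.00 for Tac1, all past the threshold with edgeR. Among decreases Esr1 was at -2.85 and Gfra1 at -1.51, both past it. Zeb2 (0.21, edgeR adjusted p = 0.86) and Zfp536 (-0.51, edgeR adjusted p = 0.094) did not pass, although both fell in the nuclei taken by the rule.

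GABAergic neurons with Lef1 alone were set against the 55 nuclei next. The 55 nuclei differed from 215 nuclei with 2 or more UMIs of Lef1 and none of Tcf7l2 in 40 of 4264 genes tested (0.938%), 21 higher and 19 lower. Lypd6 averaged 177 CPM in the Lef1/Tcf7l2 nuclei, against 27.51, 44.92, 102.2 and 79.78 CPM in the Lef1 nuclei (log2 fold change 1.48). Hpgd rose by 2.03 and Tac1 by 1.40 on the log2 scale. Unc13c, a vesicle priming protein, had 93.57, 58.06, 134.3 and 59.16 CPM in the Lef1/Tcf7l2 nuclei, against 1132, 610.4, 528.4 and 553.1 CPM in the Lef1 nuclei. Its log2 fold change was -2.77 ± 0.25 (SE, edgeR adjusted p = 2.5e-07). Hdc averaged 255.8 CPM in the Lef1/Tcf7l2 nuclei and 129.6 CPM in the Lef1 nuclei. The count of genes past the threshold was 8 without ImP 4, 12 without vehicle 1 and 61 without ImP 3.

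GABAergic neurons with Tcf7l2 alone were set against the 55 nuclei in the same way. Against 205 nuclei with 2 or more UMIs of Tcf7l2 and none of Lef1, 136 of 4802 genes tested (2.83%) passed, 65 higher and 71 lower. Hdc was higher by 3.97 ± 0.42 on the log2 scale (SE, edgeR adjusted p = 4.3e-07), Hpgd by 3.04, Slc16a10 by 2.76, Hcrtr2 by 2.41 and Lypd6 by 2.34. Zeb2 (-3.85), the myelin transcription factor St18 (-3.45), Gfra1 (-3.40), Csgalnact1 (-3.30) and Zfp536 (-3.18) led the decreases. The myelin gene Mbp and the astrocyte genes Slc1a2, Slc4a4 and Slc1a3 also fell, and Tcf7l2 is itself expressed in glia. With the strict sets, 24 of the 45 lower genes still tested kept their call. The count was 88 without ImP 4, 61 without vehicle 1 and 58 without the Hdc nuclei.

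The study compared ImP with vehicle. The Lef1/Tcf7l2 nuclei made up 0.250% (exact 95% binomial interval 0.0917 to 0.543) of GABAergic nuclei in ImP 3 and 0.359% (0.172 to 0.658) in ImP 4, against 0.997% (0.633 to 1.49) in vehicle 1 and 0.620% (0.355 to 1.00) in vehicle 2. Both ImP libraries lay below both vehicle libraries. The means were 0.304 ± 0.0770% with ImP and 0.808 ± 0.266% with vehicle (SD, n = 2 libraries each), a log2 ratio of -1.41. The two-sided exact permutation p was 0.333, the smallest that 2 libraries against 2 allow. The intervals cover counting error only. The nuclei with Hdc below 2 UMIs gave 0.227% with ImP and 0.659% with vehicle. Those with 2 or more Hdc UMIs gave 0.0832% in ImP 3 and 0.0717% in ImP 4, against 0.26% in vehicle 1 and 0.0388% in vehicle 2, and overlapped.

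Depth bears on this share. The median UMI count of GABAergic nuclei was 4273 in ImP 3 and 4142 in ImP 4, against 5569.5 in vehicle 1 and 4795 in vehicle 2. Thinned to 5000 UMIs, with 2, 1, 6 and 7 nuclei left by the rule, the shares were 0.214% with ImP and 0.665% with vehicle, without overlap. Thinned to 3000 UMIs, with 2, 0, 1 and 3 nuclei left, they were 0.0873% and 0.162% and the libraries overlapped. With 1 or more UMIs of both genes the shares were 1.49% with ImP and 2.20% with vehicle. Thinned to 3000 UMIs these were 0.981% and 1.16% and overlapped, and thinned to 5000 UMIs they were 1.65% and 2.71% and did not. Each gene alone, with 1 or more UMIs after thinning to 3000, was found in 4.99% of GABAergic nuclei with ImP and 4.51% with vehicle for Lef1, and in 5.31% with ImP and 4.96% with vehicle for Tcf7l2. At 5000 UMIs the log2 ratios of these single-gene shares were -0.14 for Lef1 and -0.07 for Tcf7l2. Fewer nuclei of this kind and less of their RNA per nucleus cannot be told apart from a share over a limit. Before the GABAergic limit, nuclei with 2 or more UMIs of both genes numbered 20 in ImP 3 and 20 in ImP 4, against 59 in vehicle 1 and 22 in vehicle 2, and in vehicle 1 18 of the 59 had 2 or more UMIs of vesicular glutamate transporters.

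**Figure D4:**
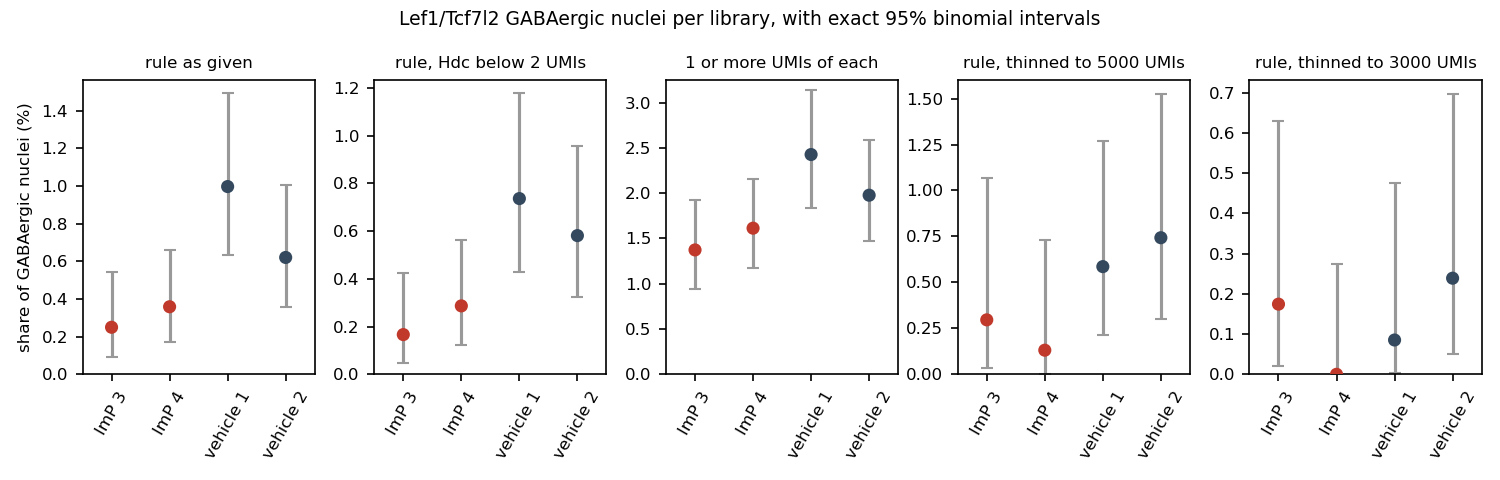
Share of GABAergic nuclei (vertical axis, %) in each library, ImP 3 and ImP 4 in red and vehicle 1 and vehicle 2 in dark blue, with exact 95% binomial intervals, for the rule as given, the rule with Hdc below 2 UMIs, 1 or more UMIs of both genes, and the rule after thinning to 5000 and to 3000 UMIs. Both ImP libraries lie below both vehicle libraries in 4 of the 5 panels, and at 3000 UMIs the libraries overlap.

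Genes were compared between ImP and vehicle in the wider class with 1 or more UMIs of both Lef1 and Tcf7l2, with 33 and 45 nuclei in ImP 3 and ImP 4, against 56 and 51 in vehicle 1 and vehicle 2, because the 55 nuclei were too few. None of 6029 genes (0%) passed with edgeR or with DESeq2, and 365 had an unadjusted edgeR p under 0.05, 229 of them higher with ImP. The 55 nuclei alone gave 0 of 2061 genes. With the number before the library name (111 or 113), whose meaning the labels do not give, as a block, 3 genes passed, Plcl1, Slc4a4 and the glypican Gpc5, higher with ImP. Leaving out 1 library gave 12 to 45 genes, but leaves 1 library in an arm, which is then assumed to vary like the other group. The smallest adjusted p was 0.063, shared by several genes. Among these Plcl1, a phospholipase C-related protein that binds GABA receptor partners, had 233.1 and 323.8 CPM in ImP 3 and ImP 4, against 99.07 and 127.4 CPM in vehicle 1 and vehicle 2 (log2 fold change 1.31). The others were Tmtc2 (1.08), Entrep2 (1.26), the bicarbonate transporter and astrocyte marker Slc4a4 (2.12), the respiratory chain subunit Cox4i1 (1.21) and Tmem163 (1.27). The 12 astrocyte markers summed to 306.9 and 339.4 CPM in ImP 3 and ImP 4 of the wider class, against 153.9 and 153.4 CPM in vehicle 1 and vehicle 2. Nuclei with 5 or more UMIs of glial markers numbered 8 of 33 and 4 of 45 with ImP, against 3 of 56 and 0 of 51 with vehicle, and the part of glial RNA in these values was not tested. The smallest p among decreases was that of Cpne8, a copine, at 34.96 and 50.72 CPM, against 113.8 and 111.8 CPM (log2 fold change -1.39, edgeR adjusted p = 0.20). Of 70 ribosomal protein genes none passed (median log2 fold change 0.35), nor did any of 47 nuclear-encoded respiratory chain genes (0.35) or 10 neuropeptide genes (0.69), beside a median of 0.00 over all genes tested.

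The ImP effect was also set against that in the other GABAergic neurons. Of 15823 genes, 1 (0.00632%) passed in the interaction of class and treatment, Oxt, the oxytocin precursor, with a log2 difference of -3.11 (edgeR adjusted p = 8.1e-08). Its UMIs in the Lef1/Tcf7l2 nuclei numbered 0 in ImP 3 and 10 in ImP 4, against 45 in vehicle 1 and 34 in vehicle 2, and 39 of the 45 lay in 1 nucleus. DESeq2 called 0 genes, as did edgeR without vehicle 1 or without vehicle 2, and edgeR called 13 without ImP 4, where each of these fits has 1 library in an arm.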

How the data were processed

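Nuclei of 4 hypothalamus libraries were profiled with 10x 3′ chemistry per the labels. The authors deposited UMI counts per gene and barcode, not normalized, for 33696 genes. Cell Ranger 8.0.1, Seurat 5.0.0 and build GRCm39 are named per the submitters' processing notes, and the treatment of intronic reads is not given in the sources used here. The deposited barcodes numbered 56797, of which 54422 passed the gene and mitochondrial limits. No doublet caller was run, and a strict set left out nuclei with glial or glutamatergic counts. The rule, the members and the 39 gene lists were chosen with earlier results of these data known.

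UMI counts of each class were added up within each library and tested with edgeR 4.0.16 (quasi-likelihood, TMM scaling, filterByExpr with a minimum count of 10, library as block for comparisons between classes, Benjamini-Hochberg threshold 0.05) in R 4.3.3, with DESeq2 1.42.0 as an alternative, and the steps were tested on simulated data. Between classes of unequal size, genes could pass the count filter through the larger class alone. Levels are CPM of the summed counts. The SE of a log2 fold change is that fold change, without its sign, divided by the square root of the edgeR F statistic. It uses a spread estimated across genes and is not the SE of the values of the libraries. Python 3.11.15, NumPy 2.4.6, SciPy 1.17.1, pandas 2.3.3 and Matplotlib 3.10.9 were used. The text names the 15 largest changes in each direction among genes past the threshold, 5 each against the Lef1 and Tcf7l2 classes, up to 4 examples per list and the 6 smallest p for ImP. Lists without a call are given by count and median only, in place of their 2 highest genes as planned. Rule genes, Npsr1 and Rarb were left out of all counts of calls. The planned ImP comparison required 20 nuclei per library, which 3 libraries lacked, so the class with 1 or more UMIs of both genes, listed as an alternative, is reported. The labels do not say that libraries come from separate animals, so the spread between libraries may be technical. The edgeR and DESeq2 p-values use a spread estimated across genes, not that of a single gene between these libraries alone. Some genes that the naming rule selects are not reported here. Thinning drew 3000 or 5000 UMIs per nucleus and left out shallower nuclei.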

Additional observations from a re-analysis of the deposited data

Results flagged for a closer look

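Oxt, the oxytocin precursor, was singled out because its ImP effect differed between the Lef1/Tcf7l2 nuclei and the other GABAergic neurons. It was the only gene of 15823 past the threshold in the interaction fit, with a log2 difference of -3.11 ± 0.45 (SE, edgeR adjusted p = 8.1e-08). DESeq2 called 0 genes, and 507 had an unadjusted edgeR p under 0.05. Oxt had 0 and 145.1 CPM in the Lef1/Tcf7l2 nuclei of ImP 3 and ImP 4, against 201.5 and 287.4 CPM in vehicle 1 and vehicle 2. In the other GABAergic neurons it had 197.7 and 244.8 CPM, against 79.6 and 126.6 CPM. The counts in the Lef1/Tcf7l2 nuclei were 0 and 10 UMIs with ImP, against 45 and 34 with vehicle, and 39 of the 45 came from 1 nucleus and 18 of the 34 from another. Oxt also had a UMI in 51.8% and 66.5% of oligodendrocyte nuclei in ImP 3 and ImP 4, against 33.2% and 38.7% in vehicle 1 and vehicle 2. The part of free RNA and of single nuclei in the difference was not tested.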

How the results depend on the processing

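The 333 genes called against the other GABAergic neurons became 143 with DESeq2, 147 without nuclei of 2 or more Hdc UMIs, 29 with 3 or more UMIs of both genes and 139 to 302 with a library left out. Against the Lef1 nuclei 40 became 23 with DESeq2, 64 without a count filter, 16 at 5000 to 15000 UMIs and 8 to 61 with a library left out. Against the Tcf7l2 nuclei 136 became 59 with DESeq2, 58 without the Hdc nuclei and 61 to 173. Just outside the rule 458 became 249 with DESeq2 and 279 to 373. For the difference of the ImP effect 1 became 0 with DESeq2, 2 with the strict set and 0 to 13. For ImP in the wider class 0 became 30 without a filter, 1 with the strict set, 3 with the number before the library name (111 or 113) as a block, 7 without the Hdc nuclei and 12 to 45. Fits of ImP without a library have 1 library in an arm, assumed to vary like the other group. Why these counts moved was not tested.

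The log2 ratio of the share, -1.41, was -0.894 thinned to 3000 UMIs, -3.03 with 3 or more UMIs of both genes, -0.56 with 1 or more, -0.247 and -0.716 with 1 or more after thinning to 3000 and 5000, -0.947 for nuclei with Hdc and -1.71 to -1.03 with a library left out. Without the Hdc nuclei the log2 fold changes of Slc16a10 (-0.30), Fam107b (-0.17), Myo1e (-0.37), Tspan12 (-0.41) and Calcrl (-1.80) turned negative. Fitted against libraries at 0, Brs3 gave -7.28 at 3 or more UMIs, and the interaction of Meis2 gave -10.14 without ImP 3, -10.12 with the strict set and -9.44 at 5000 to 15000 UMIs, none of which is a bound. The interaction of Cntn5 was -0.11 with the strict set.

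Libraries could not be paired by replicate number because the ImP libraries are numbered 3 and 4 and the vehicle libraries 1 and 2, so no number is shared. The number before the library name was used as a block instead. The ImP gene fits after thinning to 3000 UMIs (8, 17, 17 and 11 nuclei) and with 3 or more UMIs of both genes (0, 2, 9 and 5 nuclei) were not run. With 55 nuclei in all and 2 libraries per condition, depth limits genes below about 30 CPM, and vehicle 1 supplied 23 of the nuclei.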
